A study of Homo sapiens with 24 samples.

Results

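The RNA libraries of this study were numbered 1 to 4 within each experimental group, and the number went with a prefix of the library label, 1-11 for the libraries numbered 1, 2-11 for number 2, 29-10 for number 3 and 31-10 for number 4. The labels do not state what the prefix stands for. Library set 1 held the 6 libraries numbered 1, which is 1 library from each of 6 groups, and was compared with the 18 libraries of sets 2 to 4, out of 24 in all. The libraries were chosen by their label alone. The cells were HepG2, a widely used line from a human liver tumour, transduced with lentiCRISPRv2, a lentiviral vector that carries Cas9 and a guide RNA, and transfected with siRNA 72 hours before RNA was taken. The guide was sgCtrl, which targets the AAVS1 site, or sgKeap1-1 or sgKeap1-2, which target KEAP1, the adaptor that presents the transcription factor NRF2 for degradation. The siRNA was siNC, a non-targeting control, or sitfeb/sitfe3, pooled siRNAs against TFEB and TFE3, transcription factors that drive lysosomal genes. Each guide was combined with each siRNA, which gave 6 groups of 4 libraries. Every library, controls included, therefore came from cells with the vector and a transfected siRNA. The sources used here do not say that the edited cells were clones, or that libraries of a group came from separate cultures, so p-values measure the spread between these libraries, which may be technical in part.

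The comparison asked how the growth and stress programmes of the cells differed between set 1 and the other sets at equal guide and siRNA. In a growing culture, E2F factors switch on the genes for DNA synthesis before S phase, and the genes for mitosis follow later in the cycle under the control of B-MYB, FOXM1 and the DREAM complex, which holds both groups silent in resting cells. Shortage of amino acids, stress in the endoplasmic reticulum (ER) or mitochondrial stress lead to phosphorylation of the translation factor eIF2, which lowers protein synthesis but favours translation of ATF4, and ATF4 then raises genes for amino acid uptake, amino acid synthesis and transfer RNA charging. In liver cells, feeding state and growth factors act on a further group of genes, among them IGFBP1, which insulin represses.

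Total reads were between 3527000 and 4173663 in set 1 (median 3687277) and between 3575348 and 4600951 in the other sets (median 4227990), a difference with p = 0.0149 in an exact two-sided permutation test within groups (p = 0.0238 after Benjamini-Hochberg adjustment over 8 measures of the libraries). All 10 marker genes of HepG2 and hepatocytes were expressed, ALB at 3961 to 8526 CPM (read counts scaled to a fixed library total) in set 1 and at 3578 to 12200 in the other sets. Of 26 markers of other cell types, 6 had a row in the table, and their summed level was 1012 to 1594 CPM in set 1 and 1334 to 2869 in the other sets, most of it LYZ, lysozyme, which fell by 0.48 on the log2 scale (adjusted p = 0.00022). PTPRC, PECAM1, VWF, CDH5, PDGFRA and COL3A1 were among the 20 without a row. The siRNA targets were lower with sitfeb/sitfe3 than with siNC in set 1 as in the other sets, with log2 differences of -1.74 and -1.61 for TFE3 and of -1.87 and -1.73 for TFEB. KEAP1 RNA was 85.3 to 85.8 CPM with sgCtrl in set 1, 48.1 to 52.2 with sgKeap1-1 and 74.0 to 79.4 with sgKeap1-2, although RNA level does not show whether a guide cut.

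Within set 1, a pair of libraries stood apart from the rest, namely replicate 1 of the siNC; sgKeap1-1 group and replicate 1 of the sitfeb/sitfe3; sgKeap1-2 group. After the mean of each group was taken away, the first principal component of log2 CPM (19.9% of the variance) placed them at -46.1 and -39.0, while the other 4 libraries of set 1 lay between -9.32 and -2.14. The root mean square log2 difference between libraries of 1 group had a median of 0.706 for the 6 pairs with these libraries, 0.503 for the 12 pairs with the other 4 libraries of set 1 and 0.455 for the 18 pairs among sets 2 to 4. In the library of the sitfeb/sitfe3; sgKeap1-2 group, 4.63% of reads in named genes fell on MTRNR2L genes, nuclear copies of a stretch of mitochondrial ribosomal RNA from which they are hard to tell apart, against at most 0.837% in the other 3 libraries of its group. Both libraries carried a KEAP1 guide, and the results below are given with and without them where that ends a call or moves a value by over 1.5 times. Rows without a gene ID and histone genes also took a larger share of reads in set 1 than in the other sets (medians of 1.74% against 1.48%, and 0.0461% against 0.0256%, exact permutation p = 0.000732 and 0.000488), as the plot of library measures shows. MTRNR2L genes did so over set 1 as a whole too (medians of 1.09% against 0.662%, exact permutation p = 0.00317). The part that these library measures had in the gene results was not tested.

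**Figure D1:**
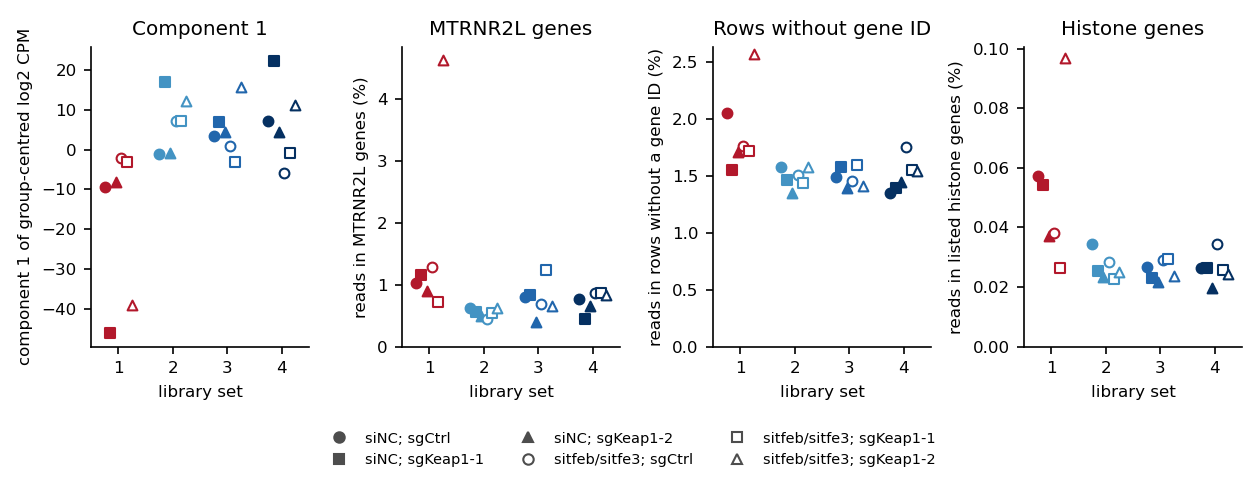
The 4 panels show, for each of the 24 libraries by set (x axis), the score on the first component of group-centred log2 CPM, and the percentages of reads in MTRNR2L genes, in rows without a gene ID and in replication-dependent histone genes. Filled symbols are siNC, open symbols sitfeb/sitfe3, and the shape gives the guide. In set 1, 2 libraries lie at -46.1 and -39.0 on the first component, and 1 of them has 4.63% of its reads in MTRNR2L genes.

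Set 1 differed from the other sets in many genes by moderate amounts. Of 11152 genes tested with limma-voom in 1 fit with the 6 groups as a factor, 806 were higher in set 1 (7.23% of the genes tested) and 809 were lower (7.25%) at an adjusted p under 0.05. Only 14 of those that were higher and 41 of those that were lower changed by 1 log2 unit or more, and the median change over all genes was 0.0028. The set 1 library was above all 3 other libraries of its group in each of the 6 groups for 127 genes (1.14%), and below all 3 in each for 129 (1.16%). Without the 2 libraries that stood apart, 429 genes were higher (3.8% of 11280 tested) and 489 lower (4.34%). The counts of each gene list below are to be read beside these shares of all genes. The lists were chosen with earlier results of these data known, so they are not independent of them. Within siNC libraries alone 518 genes passed, and within sitfeb/sitfe3 libraries alone 39, although the median change of the replication list was 0.49 and 0.32 in them, that of the mitosis list 0.44 and 0.41, and that of the ATF4 list -0.46 and -0.29. Of the 1615 genes called with all libraries, 1611 kept their sign without them and 622 passed again. All 6 libraries of set 1 share whatever else the set shared, so a difference of set 1 and a difference of anything common to its libraries cannot be told apart.

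The other sets did not stand out in this way. The same contrast gave 0 genes by limma for set 2, set 3 and set 4, with 656, 441 and 607 genes at an unadjusted p under 0.05, and 3230 for set 1. DESeq2 called 0, 7 and 0 genes for these sets. Since set 1 was among the libraries they were compared with, each was also set against the 2 others of sets 2 to 4 alone, a choice made after the data were seen, and then 2, 7 and 1 genes passed.

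**Figure D2:**
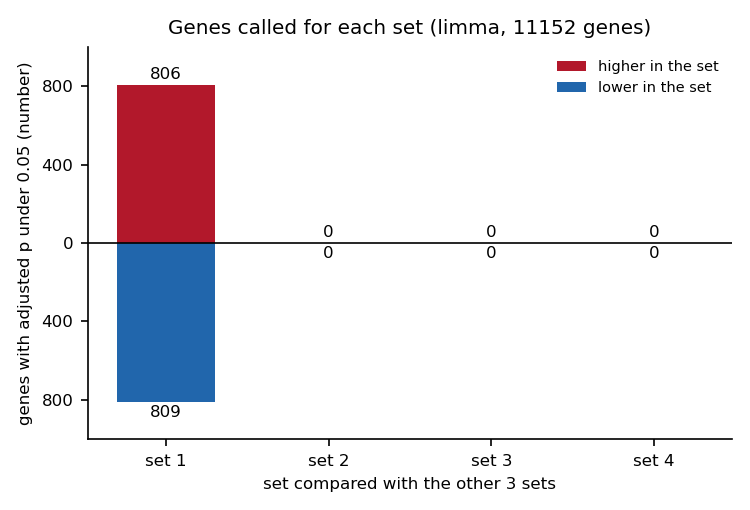
Bars give the number of genes that passed an adjusted p of 0.05 (limma) as higher (up) or lower (down) when each set was compared with the other 3, out of 11152. Set 1 has 806 and 809, and the other sets have 0.

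Genes of DNA replication and S phase entry were higher in set 1. Of 57 such genes tested, 31 rose and 0 fell, beside 7.23% of all genes that rose, 55 had a positive change, and the median was 0.42 on the log2 scale. Without the 2 libraries, 33 rose and the median was 0.46. The mean log2 CPM of the list was 5.42 over set 1 and 5.02, 5.12 and 5.0 over sets 2, 3 and 4, and in every group the library of set 1 scored above its 3 counterparts, by 0.25 to 0.55 over their mean. CDC6, which loads the MCM helicase onto origins, lay between 57.9 and 93.0 CPM in set 1 (median 71.2) and between 28.6 and 64.9 in the other sets (median 42.6). In all 6 groups its set 1 level exceeded that of the 3 other libraries, and the rise was 0.73 log2 units (SE 0.086, limma adjusted p = 1e-05). CLSPN, which passes the checkpoint signal of stalled forks to CHK1 and is not on the list but was named as 1 of the 12 largest rises, had 47.4 to 118 CPM (median 71.2) in set 1 against 19.0 to 59.1 (median 42.5), a rise of 0.89 (SE 0.11, adjusted p = 1.3e-05), again above all 3 others in 6 of 6 groups. RBL1, which encodes the pocket protein p107, was at 20.6 to 43.4 CPM (median 34.6) against 10.6 to 27.6 (median 16.9) and rose by 0.78 (SE 0.13, adjusted p = 0.00033).

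Most of the genes named from the list rose. UNG, the glycosylase that removes uracil from DNA, rose by 0.76 (SE 0.15, adjusted p = 0.0012), from a median of 65.8 to 105 CPM. Among the helicase subunits, MCM5 (0.72), MCM4 (0.63), MCM6 (0.52), MCM7 (0.42) and MCM3 (0.34) passed the threshold, and MCM2 had a change of 0.35 that did not (adjusted p = 0.0835) but did without the 2 libraries (0.64, adjusted p = 0.0013). The origin proteins MCM10 (0.73), ORC1 (0.63) and CDT1 (0.42), the GINS subunits GINS2 (0.63) and GINS1 (0.60), the polymerase subunits POLE (0.67) and POLD3 (0.63), the sliding clamp PCNA (0.44) and the ligase LIG1 (0.54) all rose, POLD3 without passing when the 2 libraries were left out, and PCNA with 0.67 in that case. Among enzymes that supply deoxynucleotides, TK1 was at 0.59, RRM1 at 0.31 and TYMS at 0.26 (0.40 without the 2 libraries), past the threshold, and RRM2 at 0.41 (adjusted p = 0.059). E2F1, which activates many genes of this list, rose by 0.51, and CCNE1, cyclin E1, by 0.51, which was 0.34 and not past the threshold without the 2 libraries. CCNE2 was close to the limit of detection, with 0.27 to 4.97 CPM over all libraries, and its change of 0.48 did not pass (adjusted p = 0.225).

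Genes of mitosis were higher as well. All 59 genes of the G2/M list had a positive change, with a median of 0.41. Of these, 42 rose past the threshold (71.2%, beside 7.23% of all genes) and 0 fell. The counts without the 2 libraries were 41 and 0, with a median of 0.42. The list's mean level was 5.94 in set 1 and 5.52, 5.54 and 5.52 in sets 2, 3 and 4, so that the gap of set 1 to the nearest other set, 0.399, was larger than the range of the others, 0.0172. HMMR, a microtubule-binding protein of the spindle, was measured at 33.3 to 66.8 CPM (median 45.1) in set 1 and at 13.5 to 43.1 (median 24.1) in the other sets, a rise of 0.82 (SE 0.12, adjusted p = 5.4e-05). MKI67, the proliferation marker that coats mitotic chromosomes, had 133 to 262 CPM (median 202) against 75.4 to 177 (median 130) and rose by 0.71 (SE 0.11, adjusted p = 0.00022). TOP2A, the topoisomerase that separates sister DNA, rose by 0.54 (SE 0.085, adjusted p = 0.00016) from a median of 806 to 1242 CPM, and CCNB1, the mitotic cyclin B1, by 0.41 (SE 0.077, adjusted p = 0.001). For HMMR, MKI67, TOP2A and CCNB1, set 1 lay above the 3 other libraries of its group in all 6 groups.

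The spindle and kinetochore were represented by KIF11 (0.69), CENPE (0.61), CENPF (0.61), ASPM (0.58) and DLGAP5 (0.80), the mitotic kinases by NEK2 (0.66), AURKA (0.65), AURKB (0.54), BUB1 (0.54) and PLK1 (0.43), and condensin by NCAPH (0.63), SMC2 (0.56) and NCAPG (0.34), all of which rose. FOXM1 (0.39) and MYBL2 (0.47), the factors that activate this group, rose too. CCND1, cyclin D1, which links growth factor signals to the start of the cycle and belongs to neither list, had a median of 367 CPM in set 1 and of 369 in the other sets, a change of 0.04 (adjusted p = 0.643). Bulk RNA does not separate a larger share of cycling cells from more RNA of these genes per cell.

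Replication genes and mitotic genes carry different promoter elements, the E2F site and the cell cycle homology region (CHR), and the promoters of genes that rose in set 1 are shown for that reason. Promoters here are the RefSeq sequences from 250 bases before to 50 bases after the start of a gene on GRCh38.p14, given for 9063 of the 11152 genes tested. The letters TTTGGCGC, the E2F site, searched on both strands, were found in 21.7% of the 46 replication genes with a promoter in the table. They were in 1.15% of the 9063 promoters of genes tested, in 0.659% of all 27305 promoters, and in 4.17% of the 48 mitotic genes with a promoter. The letters TTTGAA, the CHR, were in 64.6% of the mitotic genes, in 4.35% of the replication genes, in 9.62% of genes tested and in 15.4% of all promoters. These letters do not overlap, and a match is a description of the sequence and no proof of a site in use. Below are stretches of 80 bases, 5′ to 3′ on the strand of the gene, with each match in capitals (GCGCCAAA and TTCAAA are the same motifs read on the other strand). RBL1, POLE and MCM6 belong to the replication list, and HMMR, DLGAP5 and MKI67 to the mitotic list. All of them were chosen after their values were seen. Only called genes with a match before the start of the gene were taken, so each stretch holds a match by choice. They lie at chr20:37095998-37096077, chr12:132687343-132687422 and chr2:135876552-135876631 (all minus strand), and at chr5:163460552-163460631 (plus strand), chr14:55191681-55191760 and chr10:128126428-128126507 (both minus strand).
RBL1: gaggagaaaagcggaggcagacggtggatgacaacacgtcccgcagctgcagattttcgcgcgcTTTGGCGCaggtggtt
POLE: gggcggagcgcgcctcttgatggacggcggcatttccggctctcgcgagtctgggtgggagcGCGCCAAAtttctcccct
MCM6: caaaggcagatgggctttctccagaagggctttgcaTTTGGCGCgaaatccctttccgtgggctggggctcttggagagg
HMMR: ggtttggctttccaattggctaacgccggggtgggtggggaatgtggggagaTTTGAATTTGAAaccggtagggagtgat
DLGAP5: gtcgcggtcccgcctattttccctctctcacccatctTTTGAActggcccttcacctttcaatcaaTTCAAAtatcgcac
MKI67: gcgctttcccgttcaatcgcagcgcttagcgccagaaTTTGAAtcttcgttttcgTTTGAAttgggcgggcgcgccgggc
The 10 replication genes with the E2F letters had a median change of 0.56, and 7 of them rose (CDC6, RBL1 and MCM6 among them), beside 20 of 36 without the letters, with a median of 0.38. Among mitotic genes, 25 of 31 with the CHR letters rose (median 0.43) and 11 of 17 without (median 0.41). In RBL1 the E2F letters begin at position -16 from the start of the gene, and in HMMR 2 adjacent CHR matches begin at position -28.

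Genes of protein synthesis did not move as one group. Of 57 genes of ribosome biogenesis, 15 rose (26.3%) and 3 fell (5.26%), beside 7.23% and 7.25% of all genes. The median was 0.12, and without the 2 libraries 5 rose and 0 fell. Nucleolin, NCL, lay at 1828 to 3307 CPM (median 2346) in set 1 and at 1550 to 2011 (median 1772) in the other sets, and rose by 0.41 (SE 0.079, adjusted p = 0.0014), and by 0.23 without the 2 libraries (adjusted p = 0.0345). FBL, the methyltransferase fibrillarin, rose by 0.63 (SE 0.18, adjusted p = 0.0196) and PES1 by 0.52 (SE 0.18, adjusted p = 0.0461), and neither passed without the 2 libraries (adjusted p = 0.181 and 0.441). MYC, which activates genes of this kind and was listed with them, was at 9.58 to 58.5 CPM (median 41.3) against 33.2 to 87.8 (median 55.4). It fell by 0.67 (SE 0.23, adjusted p = 0.0451) over all libraries, and the change was -0.08 (adjusted p = 0.816) without the 2 libraries, which held the lowest MYC levels of all 24. Of 76 cytosolic ribosomal protein genes, 0 rose and 18 fell, with a median of -0.10, and without the 2 libraries 1 rose and 15 fell. RPS15A fell by 0.48 (SE 0.094, adjusted p = 0.0015), from a median of 1051 to 798 CPM, and by 0.29 without the 2 libraries, while RPS7 and RPS23, which fell by 0.42 and 0.39, did not pass without the 2 libraries (adjusted p = 0.0624 and 0.167). Many of these genes have processed copies in the genome with which reads can be shared. Among 34 translation factors 1 rose and 8 fell (0 and 4 without the 2 libraries), and EIF1, which guards the choice of start codon, fell by 0.44 (SE 0.063, adjusted p = 7.4e-05) with set 1 below its 3 counterparts in 6 of 6 groups. EIF3F and EIF4A2 fell by 0.38 and 0.35 (adjusted p = 0.0044 and 0.0089), and EIF4A2 did not pass without the 2 libraries (-0.18, adjusted p = 0.219).

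Histone genes of S phase gave a mixed picture. Their messages mostly lack a poly(A) tail, which the libraries were primed on, and 12 of 40 were tested, of which 4 rose and 1 fell, and 1 and 0 without the 2 libraries. H4C3 had the largest rise named here, from a median of 123 to 320 CPM, with 124 to 628 in set 1 and 77.7 to 242 in the other sets (log2 change 1.27, SE 0.19, adjusted p = 0.00013), and 0.80 (adjusted p = 0.0023) without the 2 libraries, a value smaller by over 1.5 times. H1-2 rose by 0.65 (SE 0.16, adjusted p = 0.0096), which was 0.21 without the 2 libraries (adjusted p = 0.24), and H2AC20 by 0.77 (adjusted p = 0.0179), which was 0.62 and did not pass (adjusted p = 0.127).

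Glycolysis genes were lower. The list's mean log2 CPM was 6.58 in set 1 and 6.88, 6.71 and 6.71 in sets 2, 3 and 4. The gap of set 1 to the nearest set, -0.125, was thus smaller in size than the range of the others, 0.169. The list scored below the mean of its counterparts in all 6 groups, and of 20 genes tested 1 rose and 7 fell (median -0.11), 1 and 3 without the 2 libraries. SLC2A1, the glucose transporter GLUT1, was at 299 to 597 CPM (median 388) against 404 to 1098 (median 789) and fell by 0.81 (SE 0.091, adjusted p = 8.3e-06), in 6 of 6 groups below all 3 others. HK2, hexokinase 2, fell by 0.73 (SE 0.15, adjusted p = 0.0021) and PFKFB4, which makes an activator of glycolysis, by 0.73 (SE 0.23, adjusted p = 0.038), without passing when the 2 libraries were left out (adjusted p = 0.0734 and 0.108). Of 70 nuclear genes of oxidative phosphorylation, 4 rose (5.71%) and 5 fell (7.14%), close to the 7.23% and 7.25% of all genes. Without the 2 libraries 5 rose and 0 fell. SDHC, COX6C and NDUFS4 fell by 0.54, 0.44 and 0.35, and none of the 3 passed without the 2 libraries (adjusted p = 0.177, 0.451 and 0.0545).

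Targets of ATF4 fell together. Of 51 genes of the amino acid stress response, 28 fell and 0 rose, beside 7.25% of all genes that fell, 46 had a negative change, and the median was -0.35. Without the 2 libraries the list had 33 that fell, 0 that rose and a median of -0.50. The list's score was 6.01 in set 1 and 6.48, 6.38 and 6.52 in sets 2, 3 and 4, and the set 1 library lay below its 3 counterparts in every group, by 0.22 to 0.73 under their mean. ASNS, asparagine synthetase, was measured at 57.1 to 127 CPM (median 98.4) in set 1 and at 84.6 to 263 (median 160) elsewhere, and fell by 0.90 (SE 0.18, adjusted p = 0.0017). TRIB3, a pseudokinase that feeds back on ATF4, fell by 0.67 (SE 0.12, adjusted p = 0.00077), from a median of 133 to 91.8 CPM, and DDIT3, the factor CHOP, by 0.64 (SE 0.17, adjusted p = 0.0152). ATF4 RNA itself had a median of 754 CPM against 910, with a change of -0.31 that did not pass (SE 0.11, adjusted p = 0.0604), and that did without the 2 libraries (-0.53, adjusted p = 0.0021). Its difference was -0.94 and -0.72 in the sgCtrl groups and -0.25 to 0.41 in the KEAP1 guide groups, and the guide interaction did not pass (0.79, SE 0.18, adjusted p = 0.0517).

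The lower genes of this list covered its main branches. INHBE, a secreted activin subunit made by liver cells, had 9.90 to 17.8 CPM (median 13.3) in set 1 and 16.95 to 62.8 (median 32.5) in the other sets, and fell by 1.36 (SE 0.20, adjusted p = 0.0001). CTH, which makes cysteine from cystathionine, had 2.52 to 11.9 CPM (median 6.37) against 6.25 to 27.3 (median 16.9) and fell by 1.33 (SE 0.25, adjusted p = 0.00098). VLDLR, a lipoprotein receptor, fell by 1.33 (SE 0.30, adjusted p = 0.0046), a change of -0.80 without the 2 libraries (adjusted p = 0.0943). In all 6 groups the set 1 levels of INHBE, CTH and ASNS were under those of the 3 other libraries. Amino acid transporters SLC7A11 (-0.94), SLC38A2 (-0.68), SLC6A9 (-0.62), SLC3A2 (-0.31) and SLC1A5 (-0.30), the enzymes of serine and folate metabolism PSAT1 (-0.54) and MTHFD2 (-0.74), and the transfer RNA synthetases MARS1 (-0.58), GARS1 (-0.47), AARS1 (-0.33) and TARS1 (-0.24) all fell. So did the stress-induced regulators DDIT4 (-0.95), an inhibitor of mTORC1, PPP1R15A (-0.73), which restores eIF2, and SESN2 (-0.48), while SLC7A5 had a change of 0.27 that did not pass (adjusted p = 0.357).

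A composite site for ATF4 and C/EBP proteins, searched as TGATGCAA on both strands, was in 14.6% of 41 promoters of this list. It was in 0.474% of promoters of genes tested and in 0.923% of all promoters. The 6 genes that held it were all transfer RNA synthetases (AARS1, CARS1, IARS1, MARS1, NARS1, TARS1), of which 3 fell with a median over the 6 of -0.28, beside 22 of 35 without it, with a median of -0.48. The promoter of AARS1 was chosen because it holds the motif, and after its values were seen. The match is on the other strand at position -187 from the start of the gene, in the stretch chr16:70289650-70289729 (minus strand, GRCh38.p14).
AARS1: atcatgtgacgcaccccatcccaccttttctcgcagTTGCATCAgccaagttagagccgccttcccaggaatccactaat

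**Figure D3:**
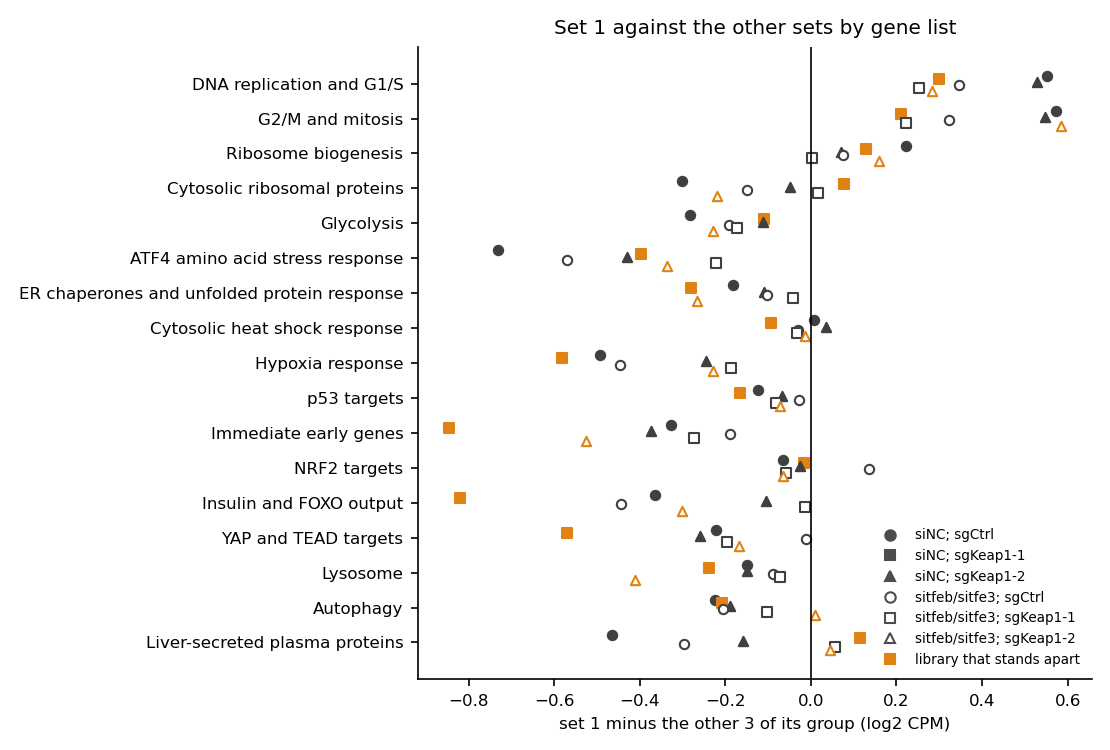
Each point is 1 group, placed by the score (mean log2 CPM of a gene list) of its set 1 library minus the mean score of its 3 other libraries, for 17 lists. Orange points are the 2 libraries that stand apart. The replication, mitosis and ribosome biogenesis lists lie above 0 in 6 of 6 groups. The glycolysis, ATF4, ER, hypoxia, p53, immediate early, insulin and FOXO, YAP and TEAD, and lysosome lists lie below 0 in 6 of 6.

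Other stress programmes were lower in part. Of 42 ER chaperone and unfolded protein response genes, 1 rose and 10 fell (median -0.10), and without the 2 libraries 0 rose and 5 fell, beside 4.34% of all genes. HERPUD1, which helps remove misfolded proteins from the ER, was at 62.2 to 115 CPM (median 82.6) in set 1 against 120 to 280 (median 160), ranges with no overlap, and fell by 1.05 (SE 0.14, adjusted p = 3.2e-05). DNAJB9, a co-chaperone in the ER, fell by 1.16 (SE 0.25, adjusted p = 0.0028), which was -0.57 without the 2 libraries and did not pass (adjusted p = 0.0697). SYVN1, the ER ubiquitin ligase HRD1, fell by 0.55 (SE 0.09, adjusted p = 0.00024). HSPA5, the main ER chaperone BiP, had a median of 1893 CPM in set 1 and 2022 elsewhere, and its change of -0.07 did not pass (adjusted p = 0.629). The cytosolic heat shock list had 7 genes that rose and 7 that fell of 34 (20.6% each, beside 7.23% and 7.25% of all genes). Without the 2 libraries 0 rose and 1 fell. HSPA8 and BAG3 fell by 0.64 and 0.56 over all libraries and had changes of -0.23 and -0.11 without the 2 (adjusted p = 0.207 and 0.661), and HSPA4L rose by 0.44 but did not pass without them (adjusted p = 0.166). DNAJB1 fell by 0.22 (adjusted p = 0.0295).

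Genes that respond to low oxygen were lower. Of 36 tested, 35 had a negative change, 13 fell (36.1%, beside 7.25% of all genes) and 0 rose (median -0.29). Without the 2 libraries 7 fell. The list's mean log2 CPM was 5.08 in set 1 and 5.59, 5.41 and 5.33 in sets 2, 3 and 4. The gap of set 1 to the nearest set, -0.251, was no larger in size than the range of the others, 0.259. NDRG1 was at 74.5 to 176 CPM (median 153) in set 1 and at 107 to 379 (median 282) in the other sets, and fell by 0.94 (SE 0.16, adjusted p = 0.00027). DDIT4, which is on the ATF4 list too, had 23.4 to 62.7 CPM (median 35.7) against 52.0 to 102 (median 70.9), with a fall of 0.95 (SE 0.13, adjusted p = 5.4e-05). For both, set 1 was below its 3 counterparts in 6 of 6 groups. VEGFA fell by 0.42 (adjusted p = 0.036), ADM by 0.43 (adjusted p = 0.0191) and ANKRD37 by 1.13 (adjusted p = 0.0093), and the last 2 did not pass without the 2 libraries (adjusted p = 0.0706 and 0.0817). CA9, a tumour hypoxia marker, was at 0 to 5.17 CPM over all libraries, too low to compare. Of the 13, DDIT4 and STC2 are ATF4 targets as well, and SLC2A1, PFKFB4 and PDK1 belong to the glycolysis list.

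Immediate early genes, which growth factors and stress switch on within minutes, were lower. Of 27, 15 fell (55.6%, beside 7.25% of all genes) and 0 rose with a median of -0.40, and without the 2 libraries 9 fell. DUSP5, a phosphatase of ERK that ERK signalling itself switches on, lay at 5.79 to 29.7 CPM (median 16.4) against 4.87 to 93.1 (median 54.9) and fell by 1.53 (SE 0.22, adjusted p = 7.6e-05). Its difference was -0.08 and -0.14 in the sgCtrl groups and between -1.93 and -1.42 in the 4 KEAP1 guide groups, although the guide interaction did not pass (-1.57, SE 0.60, adjusted p = 0.284). ATF3 fell by 0.80 (SE 0.18, adjusted p = 0.0039), EGR1 by 0.47 (SE 0.14, adjusted p = 0.024), DUSP6 by 0.60 and MCL1 by 0.57, and JUN had a change of -0.21 that did not pass (adjusted p = 0.0834). CCN1, which is a YAP target also, fell by 1.08 (SE 0.32, adjusted p = 0.0234), and the value was -0.43 without the 2 libraries (adjusted p = 0.359). Of 18 YAP and TEAD targets 1 rose (5.56%) and 6 fell (33.3%), beside 7.23% and 7.25% of all genes. Without the 2 libraries 0 rose and 2 fell, CCN2 (-0.52, adjusted p = 0.00097 over all libraries) and NT5E (-0.79, adjusted p = 0.0028), which fell in both cases. IGFBP3, at 0.51 to 4.33 CPM in set 1 and up to 14.4 elsewhere, fell by 1.43 (adjusted p = 0.0053) and did not pass without them (adjusted p = 0.0839).

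Of 35 p53 targets, 4 rose (11.4%) and 10 fell (28.6%), beside 7.23% and 7.25% of all genes, with a median of -0.03. Without the 2 libraries 2 rose and 7 fell, with a median of 0.02. GDF15, a stress hormone of the TGF-beta family, had 768 to 1620 CPM (median 1276) against 1003 to 2831 (median 1948), with a fall of 0.69 (SE 0.081, adjusted p = 1e-05). It is on the ATF4 list too. GADD45B, a sensor of stress, fell by 0.65 (SE 0.17, adjusted p = 0.0124). CDKN1A, the cell cycle inhibitor p21, fell by 0.26 (SE 0.067, adjusted p = 0.0109), and MDM2, a p53 target with no place on the other lists, was at a median of 218 CPM in set 1 and 219 elsewhere, a change of 0.03 (adjusted p = 0.789). DDB2, FDXR, RPS27L and TRIAP1 rose, by 0.27 to 0.44, and without the 2 libraries RPS27L alone of these passed again, at 0.25.

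**Figure D4:**
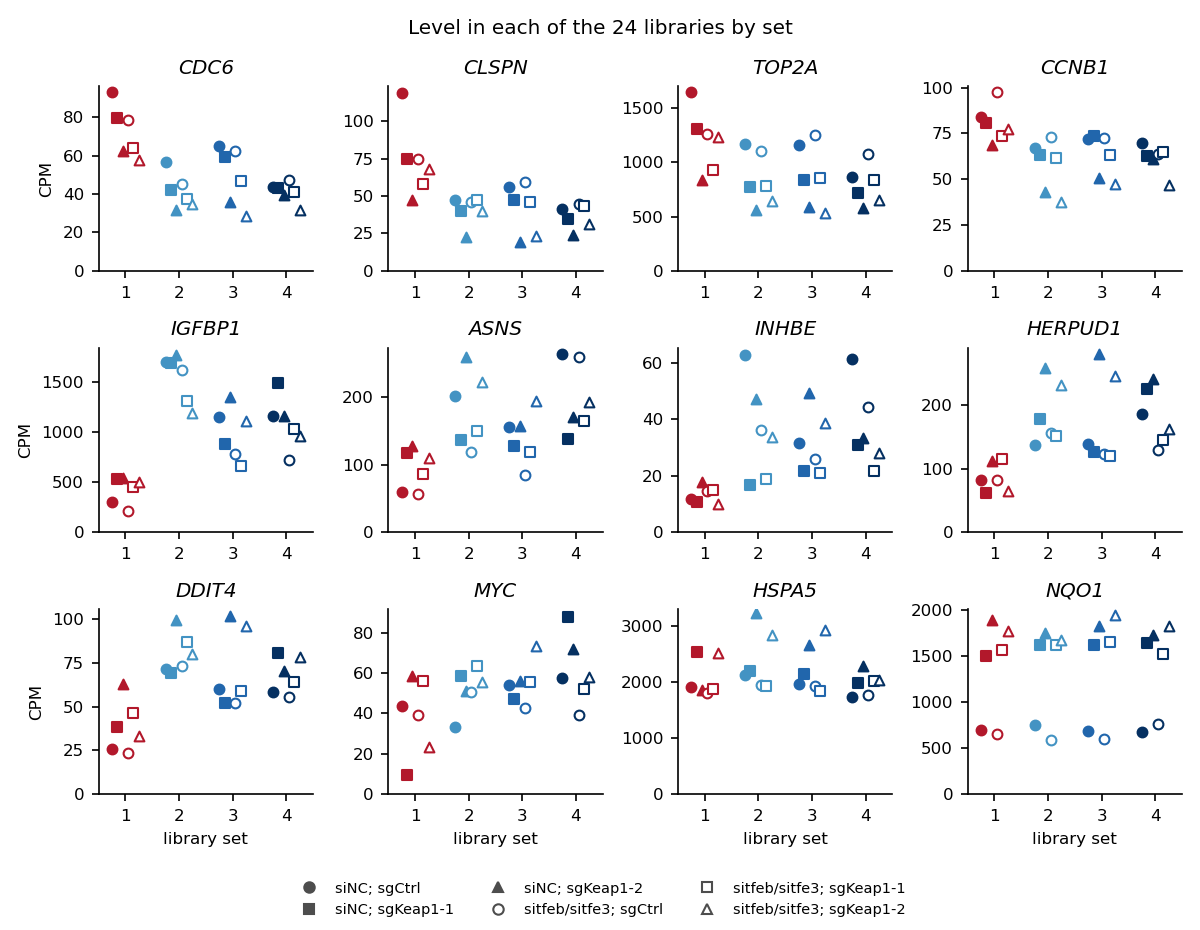
Panels give the level of 12 genes in CPM (y axis from 0) in each of the 24 libraries by set, with red for set 1, blue for the others, filled symbols for siNC, open symbols for sitfeb/sitfe3 and the shape for the guide. Set 1 lies higher for CDC6, CLSPN, TOP2A and CCNB1 and lower for IGFBP1, ASNS, INHBE, HERPUD1 and DDIT4 within each group, MYC is lowest in 2 libraries of set 1, and HSPA5 and NQO1 did not pass the test.

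Among genes of nutrient state, IGFBP1, an insulin-like growth factor binding protein secreted by liver cells and raised by fasting and stress, had the smallest adjusted p. Its level was 210 to 547 CPM (median 481) in set 1 and 664 to 1766 (median 1165) in the other sets, so that no library of set 1 reached the lowest of the 18 others. It fell by 1.53 (SE 0.17, adjusted p = 8.3e-06), and -1.69 without the 2 libraries. Of the 17 genes of insulin and FOXO output, 1 rose (5.88%) and 4 fell (23.5%), beside 7.23% and 7.25% of all genes (median -0.26). TXNIP, an inhibitor of thioredoxin that rises with glucose, rose by 0.70 (SE 0.24, adjusted p = 0.0448). Its mean was 76.5 CPM in set 1 and 53.4, 69.5 and 30.1 CPM in sets 2, 3 and 4. Set 1 lay above all 3 counterparts in 3 of 6 groups. G6PC1, the glucose-releasing phosphatase, fell by 1.81 (SE 0.50, adjusted p = 0.0173) but lay at 0 to 2.29 CPM in set 1 and 0 to 21.01 elsewhere, and in 2 of 6 groups set 1 was above the mean of the others. PCK1, also of low level, had a change of -0.82 that did not pass (adjusted p = 0.161). Among 7 genes of glucose sensing, GPD1 and TKFC rose by 0.62 and 0.46 with TXNIP, and TKFC did not pass without the 2 libraries (adjusted p = 0.102). The mean log2 CPM of this list was 4.34 in set 1 and 4.33, 4.37 and 4.13 in sets 2, 3 and 4.

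Lysosomal genes were slightly lower, with 1 of 56 that rose (1.79%) and 16 that fell (28.6%), beside 7.23% and 7.25% of all genes (median -0.16). Without the 2 libraries 1 rose and 9 fell. The list's score lay below all 3 counterparts in 6 of 6 groups. The protease CTSL and the glycosidase MANBA fell by 0.73 and 0.62, and the values without the 2 libraries were -0.22 and -0.07 (adjusted p = 0.256 and 0.746). CTSB (-0.46), NPC1 (-0.42), CD63 (-0.38) and LAMP2 (-0.32) fell and passed again without them. Of 34 autophagy genes 0 rose and 5 fell (14.7%, beside 7.25% of all genes), with a median of -0.18. Without the 2 libraries 9 fell. ULK1, the kinase that starts autophagy, had 36.0 to 64.0 CPM (median 46.6) against 40.8 to 87.5 (median 63.6) and fell by 0.43 (SE 0.12, adjusted p = 0.0191), ATG101, its partner, by 0.40 (adjusted p = 0.0143), and GABARAPL2, a member of the ATG8 family, by 0.48 (adjusted p = 0.0018, and 0.0537 without the 2 libraries).

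Of 22 cholesterol genes 1 rose (4.55%) and 3 fell (13.6%) over all groups, beside 7.23% and 7.25% of all genes. Without the 2 libraries the counts were 0 and 4. The list's medians differed by guide, -0.35 in a fit of sgCtrl libraries alone and 0.07 with the KEAP1 guides (0.17 without the 2 libraries). HMGCS1, an early enzyme of the pathway, had a change of -0.12 (adjusted p = 0.417), with -0.45 in both sgCtrl groups and 0.060 to 0.094 in the 4 KEAP1 guide groups. HSD17B7 and SC5D, with changes of 0.42 and -0.37, passed with all libraries alone (adjusted p = 0.201 and 0.575 without the 2). Of 17 fatty acid synthesis genes 1 rose (5.88%) and 3 fell (17.6%), and 0 and 2 without the 2 libraries. The median was -0.23 with sgCtrl and 0.19 with the KEAP1 guides (0.06 without the 2 libraries). LPIN1 was at -0.43 (SE 0.096, adjusted p = 0.0039). SCD and DGAT2, at -0.23 and 0.23, were not past the threshold without the 2 libraries (adjusted p = 0.121 and 0.0659). Of 29 genes of fatty acid oxidation and ketone synthesis 1 rose (3.45%) and 5 fell (17.2%), and 2 and 4 without the 2 libraries. ACAA2, a mitochondrial thiolase, rose by 0.44 (SE 0.068, adjusted p = 0.00013), above all 3 others in 6 of 6 groups, and ACSL5, an acyl-CoA synthetase, fell by 0.49 (SE 0.09, adjusted p = 0.00089). Of 17 clock genes 0 rose and 1 fell (5.88%, beside 7.25% of all genes), namely NPAS2 (-0.48, adjusted p = 0.0056, and 0.0925 without the 2 libraries).

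Targets of NRF2, the factor that KEAP1 restrains, did not move as a group, with a median of 0.0014. Of 37, 2 were higher (5.41%) and 3 lower (8.11%), beside 7.23% and 7.25% of all genes. Without the 2 libraries 3 were higher and 1 lower. NQO1 had a change of -0.02 (adjusted p = 0.867), with medians of 1530 and 1619 CPM. SLC7A11, the cystine transporter, which ATF4 also drives, lay at 60.3 to 246 CPM (median 168) against 117 to 470 (median 310) and fell by 0.94 (SE 0.10, adjusted p = 8.3e-06). HMOX1, heme oxygenase, rose by 0.45 (SE 0.098, adjusted p = 0.0033), and GCLM fell by 0.22 (adjusted p = 0.0292, and 0.124 without the 2 libraries). Metallothioneins, zinc-binding proteins, rose in 3 of 11 genes (27.3%), MT1G by 0.42, MT1X by 0.37 and MT1F by 0.33 (adjusted p = 0.0075, 0.0137 and 0.0039). MT2A did not pass (-0.24, adjusted p = 0.0961). The list's score lay above the mean of its counterparts in 3 groups and below it in 3. Its median was 0.43 in a fit of sgCtrl libraries alone and 0.05 with the KEAP1 guides (-0.03 without the 2 libraries). MT1E and MT2A passed the guide interaction test described below. These genes are close copies, and reads may be shared among them. Of 25 NF-kB and acute phase genes 2 rose (8%) and 4 fell (16%), beside 7.23% and 7.25% of all genes. CCL20 and CXCL8, chemokines of low to moderate level, fell by 1.17 and 0.73 (adjusted p = 0.036 and 0.0469), with values of -0.50 and -0.21 without the 2 libraries (adjusted p = 0.367 and 0.703), and SAA4 rose by 0.69 (adjusted p = 0.005). Of 22 interferon genes limma called 0 in either direction, and 2 fell without the 2 libraries.

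Hepatocyte products were mixed. Of 43 plasma protein genes 2 rose (4.65%) and 9 fell (20.9%), beside 7.23% and 7.25% of all genes (median -0.16). Without the 2 libraries 1 rose and 19 fell. AFP, alpha-fetoprotein, was at 903 to 4830 CPM (median 1975) in set 1 and at 1337 to 9100 (median 2531) in the other sets, ranges that the guides spread widely, and fell by 0.63 (SE 0.10, adjusted p = 0.00027), below all 3 others in 5 of 6 groups. ALB had a change of -0.06 (adjusted p = 0.635), with set 1 above all 3 others in 3 groups and below all 3 in the other 3. Of 29 hepatocyte transcription factors and enzymes 6 rose (20.7%) and 3 fell (10.3%), and 2 and 2 without the 2 libraries. Matrix genes had 5 of 28 that fell (17.9%, beside 7.25% of all genes) and 0 that rose. Of 9 nuclear-retained and noncoding RNAs 1 rose and 2 fell, and 0 and 0 without the 2 libraries.

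The set 1 library lay above the mean of its counterparts in all 6 groups for 692 genes (6.21%) and below it for 605 (5.43%). The 12 largest rises and 12 largest falls among them were mostly genes of these programmes. Besides H4C3, CLSPN and HMMR, the rises held DTL (0.87), a substrate adaptor that removes CDT1, ATAD5 (0.79), which unloads PCNA, BRCA1 (0.78) and FANCM (0.98), both of DNA repair, and FAM111B (0.81), a protease, all of which passed again without the 2 libraries. BRCA1 was at 33.0 to 58.8 CPM (median 51.1) against 10.5 to 41.0 (median 27.9), and above all 3 others in 6 of 6 groups (SE 0.11, adjusted p = 5.4e-05). PASK (0.80), a nutrient-sensing kinase, passed in both as well, whereas PSIP1 (0.97), a chromatin reader, FBXL18 (0.84) and MTRNR2L3 (0.89) did not without the 2 libraries (adjusted p = 0.155, 0.108 and 0.286). The falls were led by MMP3, a matrix protease, with 0 to 3.403 CPM in set 1 (median 1.75) and 0 to 15.5 (median 5.32) in the other sets (-1.78, SE 0.34, adjusted p = 0.0014). PIM1, a kinase that cytokines induce, was at 19.4 to 111 CPM (median 59.6) against 76.8 to 213 (median 144) and fell by 1.45 (SE 0.23, adjusted p = 0.0002), a change of -0.84 without the 2 libraries (adjusted p = 0.0016). DEPP1, a FOXO target, fell by 1.33 (SE 0.19, adjusted p = 7.2e-05) and by 1.48 without them. RASD1, a small GTPase, fell by 1.32 (SE 0.21, adjusted p = 0.00022), and CCPG1, a receptor for autophagy of the ER, by 1.28 (SE 0.19, adjusted p = 8.6e-05), with -0.70 and -0.80 without the 2 libraries, both past the threshold.

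**Figure D5:**
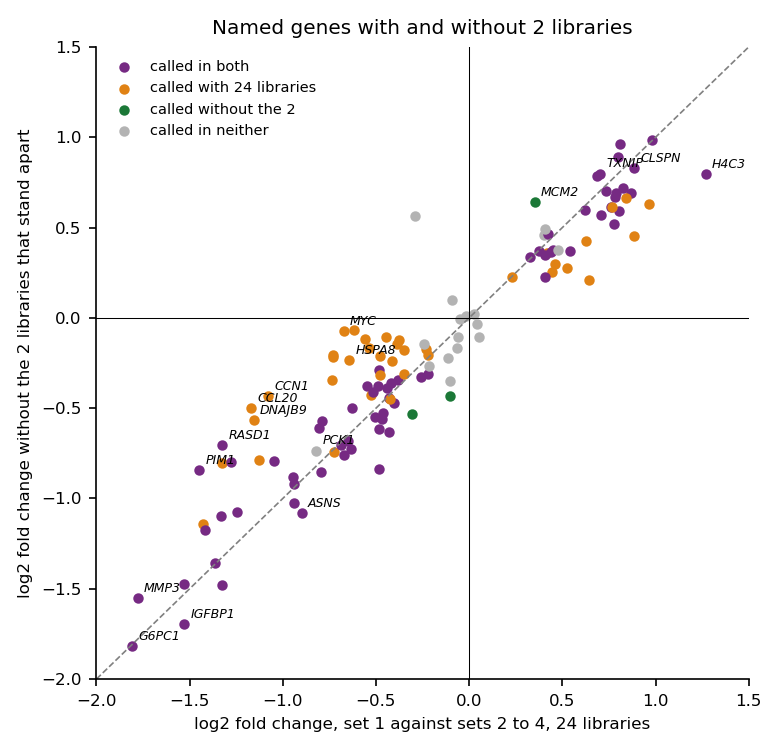
Each point is 1 of the named genes, with the log2 change of set 1 against sets 2 to 4 over all 24 libraries (x axis) and without the 2 libraries that stand apart (y axis), and the dashed line marks equality. Genes such as IGFBP1, ASNS and CLSPN lie near the line, while MYC (-0.67 against -0.08), CCN1 and CCL20 lie nearer to 0 on the y axis.

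Whether the difference of set 1 varied with the guide was tested as an interaction. Taken with both KEAP1 guides against sgCtrl, 18 genes had a larger value of set 1 with a KEAP1 guide and 6 a smaller one (0.161% and 0.0538% of the genes tested). Both libraries that stood apart carry a KEAP1 guide, and without them 7 genes passed. The test for the siRNA, sitfeb/sitfe3 against siNC, gave 0 genes by limma, edgeR and DESeq2, and 529 had an unadjusted p under 0.05 by limma. Of the guide interactions, 7 fell on the 43 plasma protein genes (A2M, AHSG, APOC3, FGB, ITIH3, SERPIND1 and TTR, listed after their values were seen). Without the 2 libraries 2 genes of that list passed, of the 7 only AHSG (0.63, adjusted p = 0.0224). Over that list the median change of set 1 was -0.40 in a fit of sgCtrl libraries alone and 0.00 with the KEAP1 guides, which was -0.11 without the 2 libraries. ITIH3, a carrier of hyaluronan in plasma, had a change of -1.23 with sgCtrl and of 0.06 with the KEAP1 guides, a difference of 1.29 (SE 0.23, adjusted p = 0.0086), which was 1.08 without the 2 libraries (adjusted p = 0.133). FABP1, the liver fatty acid binding protein, had changes of -0.99 with sgCtrl and of -0.15 with the KEAP1 guides, with a difference of 0.82 (SE 0.16, adjusted p = 0.019), and of 1.06 without the 2 libraries (adjusted p = 0.0024). IL11, a cytokine, went the other way, with 0.07 under sgCtrl and -1.52 under the KEAP1 guides (difference -1.60, SE 0.34, adjusted p = 0.0407), and so did AREG, a ligand of the EGF receptor, with 0.68 and -0.39 (difference -1.07, adjusted p = 0.03), and neither passed without the 2 libraries (adjusted p = 0.133 and 0.0722). MT2A, with 0.27 and -0.51, had a difference of -0.79 (adjusted p = 0.0086), and of -0.87 without them (adjusted p = 0.0059).

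The growth and ATF4 lists held 0 genes with a guide interaction by limma. Their median change was 0.50 with sgCtrl and 0.36 with the KEAP1 guides for replication, 0.44 and 0.42 for mitosis, and -0.64 and -0.32 for ATF4 targets, and the median of the ATF4 interaction terms was 0.27 (0.33 without the 2 libraries). A set effect that misses the threshold in the interaction is not shown to be equal in the groups.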

How the data were processed

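Libraries were made with a QuantSeq 3′ kit, which reads the ends of polyadenylated RNA. The authors deposited raw read counts, whole numbers without normalization, 1 column per library. According to the study's methods, Cutadapt was used for trimming, RNA STAR for alignment to hg19 and featureCounts for counting, whereas the submitters' processing notes name hg38 beside FastQC 0.72, cutadapt 1.16, STAR 2.7.5b, featureCounts 1.6.3 and limma 3.40.6. No coordinate was taken from the counts for that reason. The annotation, the strand setting and the rule by which rows were kept are not given in the sources used here, so reads of overlapping genes may be shared. All columns were matched to a library by label (0 unmatched).

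The table held 13446 rows. The 1414 without a gene ID (1.35% to 2.57% of reads) were tested on their own. Of 12009 IDs, 160 with identical counts were merged into 78 features, and 11980 had a symbol.

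The study names limma-voom, and the tests here used it as well (R 4.3.3 with edgeR 4.0.16 and limma 3.58.1), on counts filtered by group with filterByExpr and scaled by TMM, in 1 fit of 6 group means and a term for set 1. Tests were two-sided with Benjamini-Hochberg adjustment over 11152 genes and a threshold of 0.05. CPM used TMM-scaled library sizes, and log2 CPM a prior count of 2. In simulated counts for the same design, 81% of genes changed by 0.5 and 98% of those changed by 1 log2 unit were recovered, with 4.28% of calls false. The simulated libraries were drawn independently, with no other deviation shared within a set and no libraries that stood apart. The false share therefore need not hold for the calls in the real libraries.

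Named genes were KEAP1, TFEB and TFE3, the 12 largest rises and falls at a mean of at least 20 counts with set 1 on that side in 6 groups, the 3 largest called changes of each growth, stress or nutrient list, a set of lead genes, and up to 3 genes in each direction for each interaction and other set. CHAC1, HSPA1A, FOS and INSIG1 were lead genes and are not reported, nor are a few other genes that the rule named. The members and the 33 gene lists were chosen with earlier results of these data known. Alternatives were DESeq2 1.42.0 (test and size factors), edgeR's quasi-likelihood test, other filters, sample quality weights, replicate blocks, subsets of libraries and leaving out libraries.

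Replicate numbers were checked as pairs. Deviations of libraries from their group means correlated across genes with a median r of 0.123 within set 1 (-0.019 to 0.43 over 15 pairs) and of 0.032 to 0.038 within sets 2, 3 and 4, so not every pair was over 0.1. Chi-square per degree of freedom of library pairs of 1 group was 3.59 to 35, and no library was taken as a copy of another. Reads carry no molecular identifiers.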

Additional observations from a re-analysis of the deposited data

Results flagged for a closer look

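In 14 places, 1 library lay far from the other values of its kind by Dixon's test at the 95% level, out of 125 genes, 32 lists and 48 library measures tested, where chance gives about 1 in 20. Of these, 10 were in the 2 libraries that stand apart. In siNC; sgKeap1-1, the log2 difference of set 1 was -2.46 for CTH (other groups -1.36 to -0.86), -2.22 for HSPA8 (others -0.82 to -0.074) and 0.22 for DNAJB1 (others -0.39 to -0.24), and the 50 largest genes took 21.8% of reads and histone genes 0.0541%. In sitfeb/sitfe3; sgKeap1-2, the difference for H1-2 was 2.11 (others 0.10 to 0.76), rows without a gene ID took 2.57% of reads, the 50 largest genes 21.6%, MTRNR2L genes 4.63% and histone genes 0.0967%. Elsewhere, EIF3F differed by -0.083 in sitfeb/sitfe3; sgKeap1-1 (others -0.49 to -0.39), GDF15 by -1.02 in siNC; sgCtrl (others -0.72 to -0.56), the NRF2 list score by 0.14 in sitfeb/sitfe3; sgCtrl (others -0.066 to -0.015), and ribosomal protein genes took 13.6% of reads in siNC; sgKeap1-2 replicate 1 (14.1% in the others).

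The difference of set 1 varied with the guide for 7 named genes by the interaction test of limma, given as KEAP1 guides minus sgCtrl: AREG (-1.07), FABP1 (0.82), IL11 (-1.60), ITIH3 (1.29), MT2A (-0.79), ACSM3 (1.12) and BPIFB2 (1.01). The metabolic gene ACSM3 had 1.12 (adjusted p = 0.0049) and BPIFB2 1.01 (adjusted p = 0.0414), which were 0.89 and 0.88 without the 2 libraries (adjusted p = 0.0521 and 0.21).

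Rows without a gene ID, left out of all other comparisons, held differences of set 1 too. Of 922 tested, 44 passed by limma (4.77%), of which 34 rose and 10 fell, and 173 had an unadjusted p under 0.05.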

How the results depend on the processing

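The 1615 genes called for set 1 became 911 with sample quality weights, 2525 with the set as a random block (consensus correlation -0.0475), 918 without the 2 libraries that stand apart, 456 with sgCtrl libraries only, 986 with KEAP1 guide libraries only, 518 with siNC libraries only, 39 with sitfeb/sitfe3 libraries only and 55 at an absolute log2 change of at least 1. Counts within 1.5 times were given by DESeq2 (1727), DESeq2 size factors (1605), edgeR (1567), no filter (1564), a mean of at least 20 counts (1631) and a replicate block of 4 levels (1583). With 1 value per set the count was 2099, but set 1 is then a single value, assumed to vary like the others, so it adds no support. With 1 library left out at a time, the count was 1031 to 1756, the lowest without sitfeb/sitfe3; sgKeap1-2 replicate 1. Each subset holds fewer libraries than the full fit. Those of siNC and of sitfeb/sitfe3 are equal in size and gave 518 and 39. The cause of these shifts was not tested.

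For sets 2, 3 and 4, limma called 0 genes in the comparison with the other sets, and 0 with each library left out in turn. The replicate block gave 9 for set 2 and 2 for set 4, sample quality weights 3 for set 3 and 3 for set 4, DESeq2 7 for set 3, and leaving out set 1, chosen after seeing the data, 2, 7 and 1.

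The 24 guide interactions became 5 at an absolute difference of at least 1, 112 with DESeq2, 15 with sample quality weights and 7 without the 2 libraries, and 25 with the replicate block. Leaving out 1 library gave 0 to 163, with 0 without sitfeb/sitfe3; sgCtrl replicate 1, 1 without siNC; sgCtrl replicate 1, and 163 and 86 without the siNC; sgKeap1-2 and sitfeb/sitfe3; sgKeap1-1 libraries of set 1, so their number rests on single libraries. Leaving out siNC; sgKeap1-1 replicate 1 gave 14, siNC; sgCtrl replicate 4 gave 12, and sitfeb/sitfe3; sgCtrl replicate 2 and sitfeb/sitfe3; sgKeap1-2 replicate 4 gave 13 each. The siRNA interaction stayed at 0, apart from 1 gene without sitfeb/sitfe3; sgKeap1-2 replicate 1.

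With sgCtrl libraries only, the change of set 1 was positive for BAG3 (0.14), CCN1 (0.011), CXCL8 (0.57), CTSL (0.16), IL11 (0.068) and AREG (0.68), and with KEAP1 guide libraries only for ITIH3 (0.062) and ACSM3 (0.34). Over the named genes and alternatives, 4222 changes kept their direction and side of the threshold, 472 kept the direction and missed the threshold, and 37 passed it where they had not. List medians ranged over the alternatives from 0.32 to 0.50 for replication, from 0.39 to 0.45 for mitosis and from -0.64 to -0.29 for ATF4 targets. Medians near 0 changed sign without the 2 libraries, as for p53 targets (-0.030 to 0.018), fatty acid synthesis (0.049 to -0.11), heat shock (0.019 to -0.014), oxidative phosphorylation (-0.015 to 0.010), NRF2 targets (0.0014 to -0.0062), interferon genes (-0.024 to 0.0075) and markers of other cell types (-0.057 to 0.10). Depth limits genes of a few CPM, such as MMP3, G6PC1 and CA9.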
